A study of Mus musculus with 12 samples.

Results

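The genes described here are those of the mouse major histocompatibility complex (MHC) and of antigen presentation. They comprised the 29 genes whose only symbol in the probe annotation starts with H2- and 14 further genes of antigen presentation (B2m, Tap1, Tap2, Tapbp, Psmb8, Psmb9, Psmb10, Cd74, Ciita, Nlrc5, Erap1, Calr, Canx and Pdia3), 43 of the 19937 genes that the array measured with a probe set of their own. Of the 43 genes, 34 lie on chromosome 17. Each gene was represented by its probe set with the highest mean over the 12 arrays, and only Nlrc5 had more than 1. A total of 28 genes, 14 H2 genes and the 14 others, passed the filter on dim genes, a value above the median of all probe sets of an array on at least 3 of the 12 arrays, and were tested as part of the 12430 genes of the array that did so.

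The study asked how bone stroma differs when a breast cancer grows in the bone. Female NOD SCID mice, an immunodeficient strain without mature T and B cells, either stayed tumor-free or received 200000 cells of MDA-MB231 scp1833, a bone-homing derivative of a human breast cancer line, by injection into the heart, after which tumors grew for about 2 weeks. From digested long bones, osteoblasts were sorted as GFP-negative, TR119-negative, CD45-negative, SCA1-negative, CD31-negative and CD51-positive cells, and endothelial cells as GFP-negative, TR119-negative, CD45-negative, SCA1-positive and CD31-positive cells. Amplified RNA was hybridized to Affymetrix arrays in 4 groups of 3 replicates, namely tumor-free osteoblasts, tumor-bearing osteoblasts, tumor-free endothelial cells and tumor-bearing endothelial cells. All mice shared the NOD SCID background, mouse age was not used here, and the labels do not say whether a sample pooled several mice. The p-values therefore measure the spread between these samples. In such sorted bulk samples, fewer cells of a type and less RNA per cell cannot be told apart.

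MHC class I molecules consist of a heavy chain and beta-2-microglobulin and display peptides from the cytosol on nearly all nucleated cells, after the immunoproteasome has cut the peptides, the TAP transporter has carried them into the endoplasmic reticulum, and chaperones have helped to load them. MHC class II molecules display peptides from endosomes, are held ready by the invariant chain (Cd74), and are made mainly by dendritic cells, macrophages and B cells, although interferon-gamma can switch them on elsewhere through the transactivator Ciita. Nlrc5 is the corresponding transactivator of class I genes, and interferons raise most genes of both pathways.

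Markers of the sorted cell types separated the arrays by their labels. All 10 endothelial markers were higher and all 9 tested osteoblast markers lower on the endothelial arrays in both conditions. Pecam1 lay between 10.68 and 10.92 on the endothelial arrays and Alpl between 9.62 and 10.79 on the osteoblast arrays (log2 expression). The lists include Pecam1 (CD31) and Itgav (CD51), whose products were sorted on, so that the sort largely set their direction. Tumor-free osteoblast arrays resembled each other least (Pearson r between 0.875 and 0.932 over 19937 genes, against at least 0.957 within each of the other groups). Their replicate 1 had Col1a1, the main bone collagen, at 8.40 against 11.29 and 11.34. On the log2 scale, 15 macrophage and dendritic cell markers averaged 5.08, 7.55 and 7.19 in the tumor-free and 6.47, 6.19 and 4.97 in the tumor-bearing osteoblast samples (replicates 1 to 3), but 4.73 to 5.06 in the endothelial samples. The same list, summed on the linear scale, ranged from 588 to 7097 and from 545 to 2404 in the osteoblast groups, and from 580 to 594 and from 462 to 666 in the endothelial groups. CD45, the product of Ptprc, had been used to remove blood cells, yet Ptprc read 4.92, 8.46 and 6.41 on tumor-free osteoblast arrays and 7.03, 6.87 and 4.70 on tumor-bearing ones, against 4.53 to 5.24 on endothelial arrays. None of these markers is listed at 0.

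More of the 28 tested genes passed the test between the cell types than between tumor-bearing and tumor-free mice. In tumor-free mice 7 of the 28 genes (25%) passed an adjusted p of 0.05 between endothelial cells and osteoblasts (limma over all genes tested, Benjamini-Hochberg adjustment), against 31% of all genes tested. Among these 7, the genes Erap1 and Tapbp, which trim and load class I peptides, were higher in endothelial cells (18.2% of all genes were), and the class II genes H2-Aa, H2-Eb1, Cd74 and Ciita and the class I gene H2-Q2, 17.9% of the 28, were lower (12.7% of all genes). In tumor-bearing mice 2 of the 28 (7.14%), the immunoproteasome genes Psmb8 and Psmb10, were higher in endothelial cells, against 14.9% of all genes in either direction and 8.13% higher. Between tumor-bearing and tumor-free mice none of the 28 passed in osteoblasts, against 4.59% of all genes, or in endothelial cells, against 0.0241%.

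**Figure D1:**
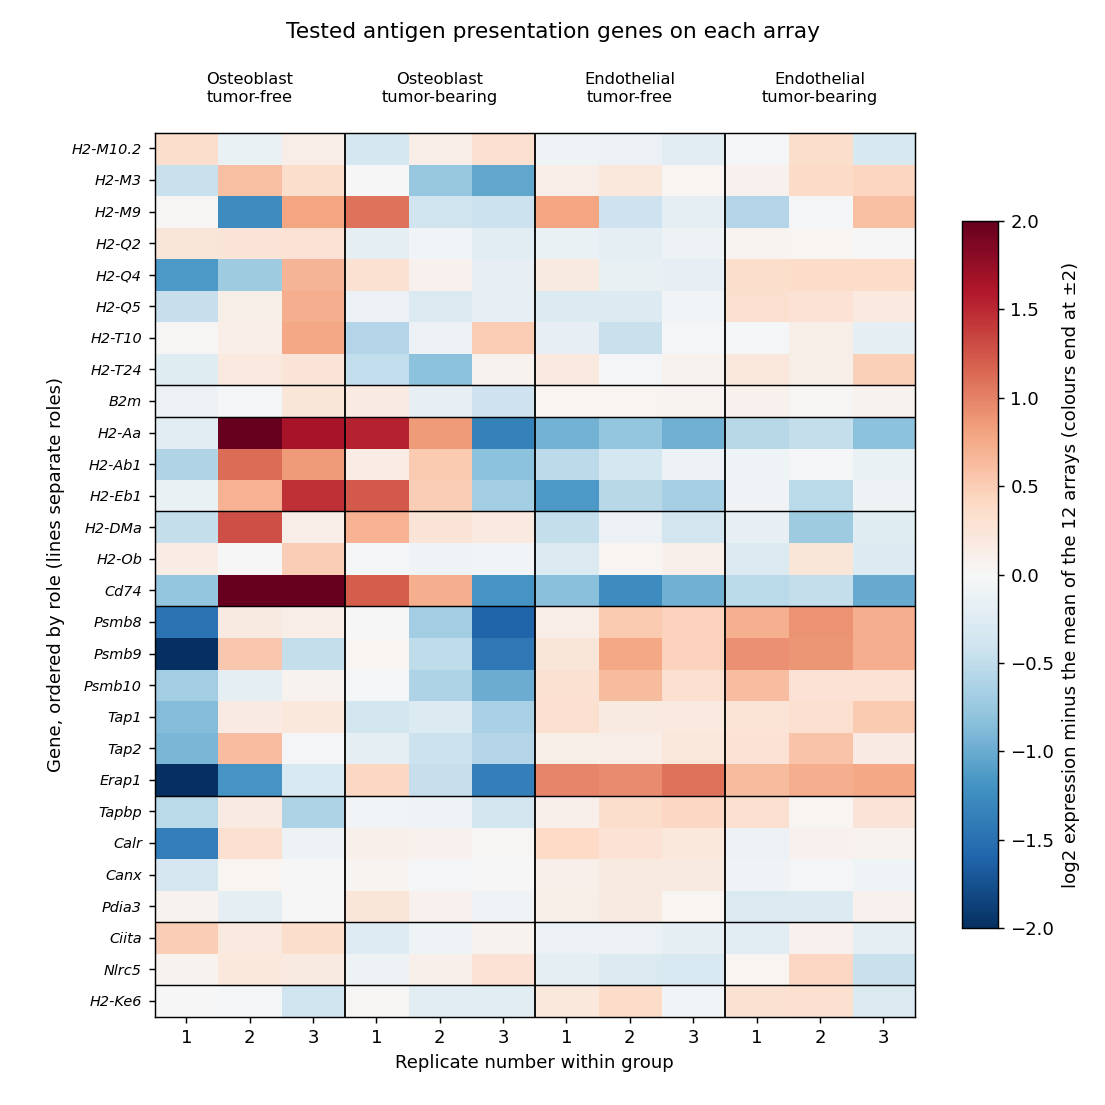
Heat map of the 28 tested antigen presentation genes (rows, by role) on the 12 arrays (columns, by group and replicate); colour is log2 expression minus the gene's mean over the 12 arrays. Cd74 and the 3 class II chains are red on 4 osteoblast arrays, blue on tumor-bearing osteoblast replicate 3 and pale to blue on endothelial arrays, whereas Psmb8, Psmb9 and Erap1 are red on all 6 endothelial arrays.

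The members varied most among osteoblast samples. In tumor-free osteoblasts the median standard deviation of the 28 genes was 0.57 log2 units (all genes tested, 0.33), and in tumor-bearing osteoblasts it was 0.28 (all genes, 0.22). Endothelial arrays were tighter, with medians of 0.12 in tumor-free and 0.17 in tumor-bearing cells against 0.17 and 0.19 over all genes. Cd74 had the widest spread in tumor-free osteoblasts (SD 1.91) and H2-Aa in tumor-bearing ones (SD 1.51). Tumor-free osteoblast replicate 1 held the lowest of the 12 values for 8 of the 28 genes and tumor-bearing osteoblast replicate 3 for 7, whereas these arrays were lowest for 15.6% and 5.59% of all genes tested.

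Among class I genes, the light chain gene B2m lay between 11.44 and 12.08 on all 12 arrays. B2m read 11.72, 11.82 and 12.08 in tumor-free osteoblasts, 12.01, 11.69 and 11.44 in tumor-bearing osteoblasts, 11.88, 11.89 and 11.91 in tumor-free endothelial cells, and 11.93, 11.87 and 11.92 in tumor-bearing endothelial cells. All 4 groups overlapped for B2m, and its 6 endothelial values lay inside the osteoblast range. The tumor-bearing minus tumor-free difference for B2m was -0.17 in osteoblasts (95% confidence interval -0.52 to 0.19) and 0.01 in endothelial cells (-0.35 to 0.37), so that a 2-fold change in either direction lay outside both intervals.

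The B2m promoter is shown because it holds several of the elements known from class I promoters close together. The sequence runs 5′ to 3′ on the plus strand of chr2:122147437-122147706 (GRCm38.p6, RefSeq), from 250 bases before to 20 bases after the transcription start. Capitals mark, in order, an interferon regulatory factor (IRF) element starting 139 bases before the start, an NF-kB site at 126 bases and an inverted CCAAT Y box at 53 bases.
B2m: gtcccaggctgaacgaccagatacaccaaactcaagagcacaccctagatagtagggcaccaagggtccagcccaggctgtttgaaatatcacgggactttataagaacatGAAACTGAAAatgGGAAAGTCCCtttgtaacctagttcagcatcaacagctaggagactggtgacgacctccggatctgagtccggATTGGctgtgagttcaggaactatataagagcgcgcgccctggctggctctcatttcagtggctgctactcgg
The motifs were searched on both strands in RefSeq windows from 250 bases before to 50 bases after each start, which exist for 32 of the 43 genes. The IRF element, a pair of GAAA separated by any 2 bases, was found in 3.43% of all 32817 windows and in those of B2m and Erap1. The NF-kB site, GGG and TTTCC separated by any 2 bases, was in 1.63% of all windows and in those of B2m and H2-Q4. The Y box, spelled CCAAT, was in 37.4% of all windows and in those of 27 of the 32 genes. These are matches of letters in the reference genome, which is not of the NOD strain, and no binding was measured.

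The tested class I heavy chain genes were 8 of 20, all of the nonclassical or Q type: H2-M3, which presents formylated peptides, H2-M9, H2-M10.2, H2-Q2, H2-Q4, H2-Q5, H2-T10 and H2-T24. The classical genes H2-K1 and H2-D1 have no probe set of their own on this array and are not among the members. H2-Q2 read 6.18, 6.19 and 6.23 in tumor-free osteoblasts, 5.76, 5.88 and 5.72 in tumor-bearing osteoblasts, 5.81, 5.76 and 5.84 in tumor-free endothelial cells, and 5.99, 5.98 and 5.93 in tumor-bearing endothelial cells. Tumor-free osteoblasts thus stood above every other array for H2-Q2, and tumor-bearing endothelial cells stood above tumor-free ones. Of the genes too dim to be tested, H2-Bl, H2-Ea, H2-M5 and H2-Q10 also stood highest on the tumor-free osteoblast arrays, and the others did not. Whether dim signal on these arrays had a part in the H2-Q2 values was not tested. H2-Q2 was lower in tumor-free endothelial cells than in tumor-free osteoblasts by 1.32-fold (log2 difference -0.40, SE 0.11, adjusted p = 0.0257 with limma). Its tumor differences were -0.42 in osteoblasts (SE 0.11, adjusted p = 0.0645) and 0.16 in endothelial cells (SE 0.11, adjusted p = 0.925). The difference between these 2 tumor differences was 0.58 (95% confidence interval 0.22 to 0.94, adjusted p = 0.152). The cell type call of H2-Q2 held in 8 of 12 fits without 1 array and was lost with centred arrays (-0.24, adjusted p = 0.113), with array quality weights (adjusted p = 0.0628) and with only the compared groups fitted (adjusted p = 0.0849), all with limma. Its tumor difference in osteoblasts passed with quantile-normalized arrays (-0.50, adjusted p = 0.0372) and without the filter (adjusted p = 0.0362).

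The other 7 heavy chain genes passed in no comparison. H2-M3 ranged from 6.91 to 7.96 in tumor-free osteoblasts and from 6.31 to 7.36 in tumor-bearing ones, and from 7.40 to 7.79 on the endothelial arrays, above all 3 tumor-bearing osteoblast values. Its difference between endothelial cells and osteoblasts in tumor-bearing mice was 0.90 (SE 0.30, adjusted p = 0.0709) and its tumor difference in osteoblasts -0.77 (SE 0.30, adjusted p = 0.151). H2-T24 stood in the same relation in tumor-bearing mice, with endothelial values of 5.74, 5.64 and 5.99 above osteoblast values of 5.02, 4.69 and 5.58 (log2 difference 0.69, SE 0.23, adjusted p = 0.0686). H2-Q4 read 7.78, 7.79 and 7.78 in tumor-bearing endothelial cells and 7.26 to 7.60 in tumor-free ones, and H2-Q5 read 6.43 to 6.55 and 5.96 to 6.18, so that for both genes the tumor-bearing endothelial arrays lay above the tumor-free ones. These differences were 0.41 (SE 0.37) and 0.47 (SE 0.24), with adjusted p of 0.989 and 0.795 in the limma fit. H2-Q5 spread from 5.78 to 6.97 in osteoblasts, H2-T10 from 7.05 to 8.41 over all arrays, H2-M9 from 6.16 to 8.51 and H2-M10.2 from 5.07 to 5.77.

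A further 15 H2 genes did not pass the filter and were not tested. Their values lay between 2.85 and 5.29 and their means over the 12 arrays between 3.13 and 4.87, while array medians lay between 5.21 and 5.41. They were H2-Bl, H2-Ea, H2-Eb2, H2-K2, H2-M1, H2-M2, H2-M5, H2-M11, H2-M10.1, H2-M10.3, H2-M10.4, H2-M10.5, H2-M10.6, H2-Oa and H2-Q10. H2-Ea encodes the alpha chain of the class II molecule I-E, which NOD mice are known to lack because of a promoter deletion, and read 3.26 to 3.95. H2-Q10, a secreted heavy chain made mainly by liver, read 3.90 to 4.53.

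Cd74, H2-Aa and H2-Eb1 were lower in endothelial cells than in osteoblasts of tumor-free mice, whereas H2-Ab1 did not pass and overlapped between the cell types. Cd74, the invariant chain that fills the class II groove until a peptide is loaded, read 5.55, 8.99 and 8.71 in tumor-free osteoblasts and 7.53, 7.04 and 5.13 in tumor-bearing osteoblasts. On endothelial arrays Cd74 read 5.48, 5.06 and 5.36 without tumor and 5.77, 5.84 and 5.32 with tumor. Replicates 2 and 3 of the tumor-free osteoblasts were highest, whereas replicate 1 of that group and replicate 3 of the tumor-bearing osteoblasts lay within the endothelial range. Cd74 was lower in endothelial cells than in osteoblasts of tumor-free mice by 5.46-fold (log2 difference -2.45, SE 0.82, adjusted p = 0.0435 with limma). In tumor-bearing mice the corresponding difference was -0.93 (SE 0.82, adjusted p = 0.571), and the groups overlapped.

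H2-Aa, the alpha chain of the class II molecule I-A, read 6.54, 8.84 and 8.41 in tumor-free osteoblasts, 8.30, 7.62 and 5.41 in tumor-bearing osteoblasts, 5.83, 6.00 and 5.81 in tumor-free endothelial cells, and 6.22, 6.30 and 5.94 in tumor-bearing endothelial cells. The 3 tumor-free osteoblast values of H2-Aa lay above every endothelial value, and tumor-bearing osteoblast replicate 3 lay below them all. H2-Aa was 4.14-fold lower in tumor-free endothelial cells than in tumor-free osteoblasts (log2 difference -2.05, SE 0.69, adjusted p = 0.0448 with limma). H2-Eb1, the beta chain of I-E, read 6.69, 7.51 and 8.27 in tumor-free osteoblasts, 8.04, 7.31 and 6.14 in tumor-bearing osteoblasts, 5.67, 6.26 and 6.15 in tumor-free endothelial cells, and 6.75, 6.28 and 6.71 in tumor-bearing endothelial cells. For H2-Eb1 the tumor-free cell types did not overlap (2.76-fold lower in endothelial cells, log2 difference -1.46, SE 0.47, adjusted p = 0.0377), and the tumor-bearing endothelial arrays lay just above the tumor-free ones. H2-Ab1, the beta chain of I-A, read 6.49, 8.21 and 7.95 in tumor-free osteoblasts, 7.25, 7.62 and 6.27 in tumor-bearing osteoblasts, 6.56, 6.74 and 6.98 in tumor-free endothelial cells, and 7.00, 7.08 and 6.97 in tumor-bearing endothelial cells. H2-Ab1 overlapped between cell types in both conditions (tumor-free log2 difference -0.79, SE 0.43, adjusted p = 0.171 with limma).

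**Figure D2:**
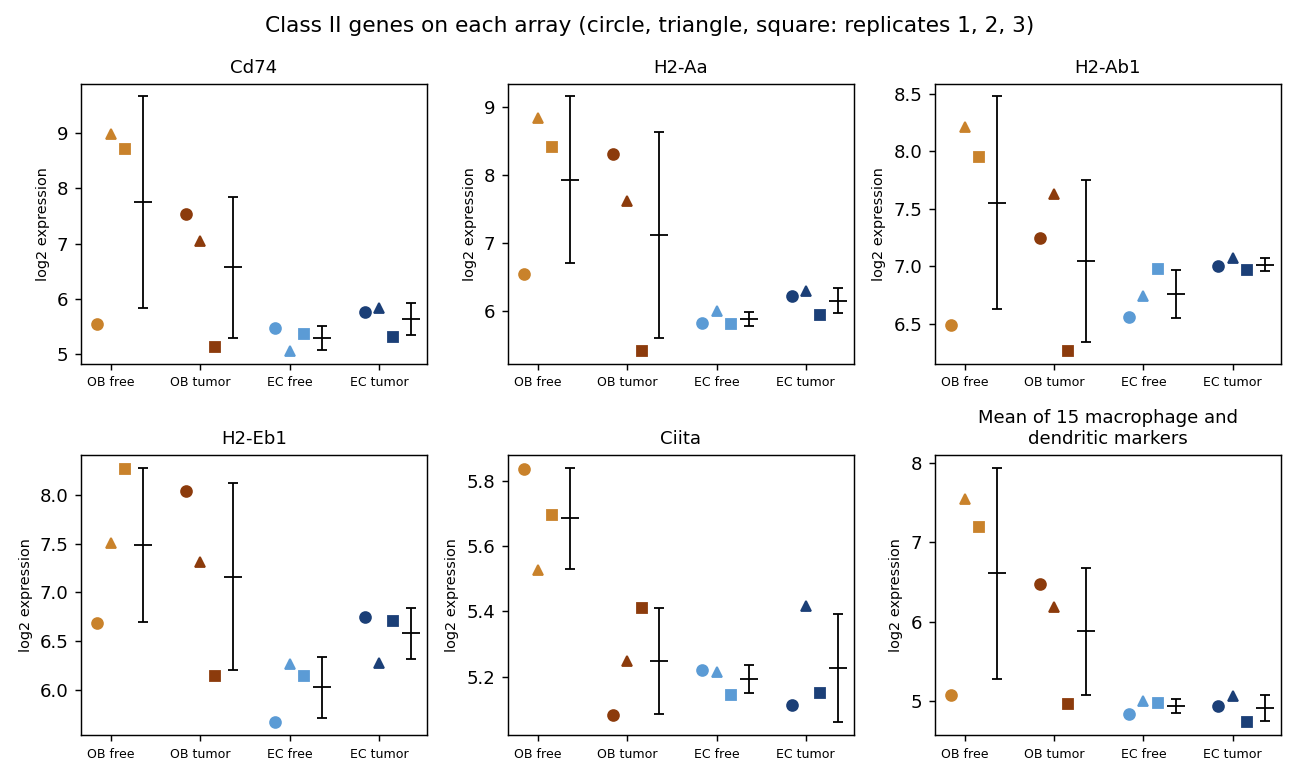
Log2 expression of 5 class II genes and, in the last panel, the mean log2 expression of 15 macrophage and dendritic cell markers on each array (OB, osteoblasts; EC, endothelial cells; bars, group mean ± SD, n = 3). Cd74, H2-Aa and the marker mean are highest on tumor-free osteoblast replicates 2 and 3 and lowest among osteoblasts on tumor-bearing replicate 3, whereas Ciita is highest on tumor-free osteoblast replicate 1.

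The macrophage and dendritic cell markers followed Cd74 and H2-Aa over the osteoblast arrays. Ordered from high to low, the 6 osteoblast arrays stood in the same order for Cd74, for H2-Aa and for the marker mean, namely tumor-free replicates 2 and 3, tumor-bearing replicates 1 and 2, tumor-free replicate 1 and tumor-bearing replicate 3. The order was not particular to these markers or to class II genes. The neutrophil marker mean, the B cell marker mean and the peptide supply gene Psmb8 had it too, whereas the T and NK cell marker mean did not. H2-Ab1 and H2-Eb1 followed other orders: H2-Ab1 had tumor-bearing replicate 2 above replicate 1, and H2-Eb1 had tumor-free replicate 3 and tumor-bearing replicate 1 above tumor-free replicate 2. Of the 15 markers, 5 to 11 lay above the array median on tumor-free osteoblast arrays, 4 to 12 on tumor-bearing ones and 4 to 5 on each endothelial array. Csf1r, the receptor of macrophage colony-stimulating factor, read 4.28, 6.61 and 7.09, then 5.92, 5.62 and 4.40, and 4.24 to 4.51 on endothelial arrays. Of the 10 markers tested, 3 (30%) were lower in tumor-free endothelial cells than in tumor-free osteoblasts, against 12.7% of all genes. They included Adgre1 (log2 difference -3.14, adjusted p = 0.0290 with limma), and none of the 10 passed in the other comparisons. Adgre1, Csf1r, Cybb and Mpeg1 lay below 5.21, the lowest array median, on every endothelial array. These genes passed the filter only through osteoblast arrays, which largely set their direction. The share of 30% therefore cannot be weighed against that of all genes. The 8 neutrophil markers had array means of 5.72 to 7.69 in tumor-free and 5.24 to 6.48 in tumor-bearing osteoblasts, against 5.01 to 6.13 on the endothelial arrays. B cell markers averaged 4.72 to 5.64 and T and NK cell markers 3.90 to 4.48 over all arrays. In tumor-free mice 2 of 6 tested neutrophil markers and 1 of 3 tested B cell markers were also lower in endothelial cells, against the same 12.7%. So were 2 of 2 tested T and NK cell markers, which read 4.96 to 6.10, with array medians between 5.21 and 5.41. The B cell marker Cd79b was lower in tumor-bearing than in tumor-free osteoblasts (1.96-fold, adjusted p = 0.0297 with limma). It was 1 of 3 tested, where 4.59% of all genes passed. The part of these markers in the class II differences was not tested.

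A single array decided several of these values. Without tumor-free osteoblast replicate 1, the tumor-free cell type difference of Cd74 was 11.7-fold and that of H2-Aa 6.71-fold, and the tumor difference of Cd74 in osteoblasts became a call (4.86-fold lower with tumor, log2 difference -2.28, adjusted p = 0.0227 with limma). Without tumor-free osteoblast replicate 2, Cd74 differed by 3.55-fold between the tumor-free cell types and was no longer called. Cd74 and H2-Aa each passed in 3 of the 12 fits that left out 1 array and H2-Eb1 in 4 of 12, and the direction was the same in all of them. The calls of Cd74, H2-Aa and H2-Eb1 were also lost with centred arrays (adjusted p = 0.0609, 0.0669 and 0.0647 with limma). They were lost too with only the compared groups fitted and with the replicate number as a block. That of Cd74 was lost after quantile normalization as well (adjusted p = 0.0578 with limma).

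Ciita, the transactivator that class II transcription depends on, followed another order than the class II genes. Ciita read 5.83, 5.53 and 5.69 in tumor-free osteoblasts, 5.08, 5.25 and 5.41 in tumor-bearing osteoblasts, 5.22, 5.21 and 5.14 in tumor-free endothelial cells, and 5.11, 5.42 and 5.15 in tumor-bearing endothelial cells. Its highest value fell on tumor-free osteoblast replicate 1, where Cd74 was low, and the 3 tumor-free osteoblast values lay above all others. All these Ciita values lay close to the array medians. H2-Ea, H2-Bl, H2-M5 and H2-Q10, which did not pass the filter, also read higher on all 3 tumor-free osteoblast arrays than on any other. The remaining untested genes did not. H2-Ea read 3.80 to 3.95 there and 3.26 to 3.61 elsewhere. Whether dim signal on these arrays had a part in the Ciita difference was not tested. Ciita was 1.41-fold lower in tumor-free endothelial cells than in tumor-free osteoblasts (log2 difference -0.49, SE 0.15, adjusted p = 0.0290 with limma) and passed in 7 of 12 fits without 1 array. The call was lost with centred arrays (-0.34, adjusted p = 0.0778 with limma) and after quantile normalization (adjusted p = 0.0662). It was also lost with array quality weights (adjusted p = 0.0714), with only the compared groups fitted (adjusted p = 0.0694) and with the replicate number as a block (adjusted p = 0.0528). The direction stayed the same in these 5 limma fits. Its tumor difference in osteoblasts was -0.44 (SE 0.15, adjusted p = 0.109).

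Of the class II accessory genes, H2-DMa, a subunit of the molecule that exchanges peptides on class II, ranged from 4.86 to 6.62 in tumor-free osteoblasts and from 5.53 to 6.03 in tumor-bearing ones. Its endothelial values lay between 4.62 and 5.21, and in tumor-bearing mice they lay below all 3 osteoblast values (log2 difference -0.76, SE 0.37, adjusted p = 0.224). H2-Ob, a subunit of the DM inhibitor, lay between 5.02 and 5.80 on all arrays and passed in no comparison.

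The promoters of H2-Aa and H2-Eb1 are shown because class II genes are known to share an upstream module of X and Y boxes. H2-Aa lies on the minus strand of chr17:34287804-34288073 and H2-Eb1 on the plus strand of chr17:34305617-34305886 (GRCm38.p6), each read 5′ to 3′ from 250 bases before to 20 bases after the start. Capitals mark in H2-Aa a cyclic AMP element, spelled TGACGTCA, that starts 74 bases before the start and an inverted Y box at 48 bases. In H2-Eb1 they mark Y boxes at 59 and 35 bases.
H2-Aa: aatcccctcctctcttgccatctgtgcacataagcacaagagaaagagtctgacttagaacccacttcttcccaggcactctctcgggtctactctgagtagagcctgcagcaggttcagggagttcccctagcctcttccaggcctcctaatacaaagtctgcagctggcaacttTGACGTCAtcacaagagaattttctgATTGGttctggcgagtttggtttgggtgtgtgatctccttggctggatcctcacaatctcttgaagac
H2-Eb1: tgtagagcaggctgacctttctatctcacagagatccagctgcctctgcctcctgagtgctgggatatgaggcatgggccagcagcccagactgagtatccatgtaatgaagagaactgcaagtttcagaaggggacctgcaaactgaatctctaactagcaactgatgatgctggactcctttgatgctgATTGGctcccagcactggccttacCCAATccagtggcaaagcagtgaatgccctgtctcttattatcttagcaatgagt
The cyclic AMP element was in 1.79% of all windows and, among the members, in that of H2-Aa alone. The X1 box, spelled CCTAGNAAC, was in 1.52% of all windows and only in that of H2-Ob among the members. An absent match says only that these letters are not in the window.

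The genes that supply class I peptides were read higher in endothelial cells. For all 6 of them the endothelial minus osteoblast difference was positive in both conditions, with medians of 0.73 in tumor-free and 1.06 in tumor-bearing mice (all genes tested, 0.03 and 0.00), except that 1 of the 6 was negative in tumor-free mice after quantile normalization. Erap1 passed the test in tumor-free mice, and Psmb8 and Psmb10 in tumor-bearing mice.

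Psmb8, Psmb9 and Psmb10 encode the catalytic subunits that turn a proteasome into an immunoproteasome. Psmb8 read 6.74, 8.39 and 8.34 in tumor-free osteoblasts, 8.23, 7.52 and 6.62 in tumor-bearing osteoblasts, 8.34, 8.74 and 8.68 in tumor-free endothelial cells, and 8.92, 9.11 and 8.95 in tumor-bearing endothelial cells. All 3 tumor-bearing endothelial values of Psmb8 lay above every other array. In tumor-bearing mice Psmb8 was 2.90-fold higher in endothelial cells (log2 difference 1.53, SE 0.45, adjusted p = 0.0440 with limma), and in tumor-free mice, where the groups overlapped, the difference was 0.76 (SE 0.45, adjusted p = 0.211). Psmb10 read 6.60, 7.11 and 7.36 in tumor-free osteoblasts, 7.27, 6.67 and 6.29 in tumor-bearing osteoblasts, 7.60, 7.93 and 7.61 in tumor-free endothelial cells, and 7.91, 7.58 and 7.58 in tumor-bearing endothelial cells. The 6 endothelial values of Psmb10 lay above all 6 osteoblast values. Psmb10 was 1.92-fold higher in endothelial cells of tumor-bearing mice (log2 difference 0.94, SE 0.26, adjusted p = 0.0321), and in tumor-free mice the difference was 0.69 (SE 0.26, adjusted p = 0.0654). In tumor-bearing mice the call of Psmb8 held in 4 of 12 fits without 1 array and was lost without the filter (adjusted p = 0.0638 with limma), and that of Psmb10 held in 7 of 12. Psmb9 read 7.15, 9.86 and 8.85 in tumor-free osteoblasts, 9.35, 8.80 and 7.89 in tumor-bearing osteoblasts, 9.57, 10.09 and 9.79 in tumor-free endothelial cells, and 10.24, 10.19 and 10.04 in tumor-bearing endothelial cells. Its differences of 1.19 (SE 0.56) and 1.48 (SE 0.56) had adjusted p of 0.123 in tumor-free and 0.116 in tumor-bearing mice. Psmb9 and Psmb8 were lowest on tumor-free osteoblast replicate 1 and tumor-bearing osteoblast replicate 3, the arrays on which the macrophage and dendritic cell markers were also lowest among osteoblasts.

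**Figure D3:**
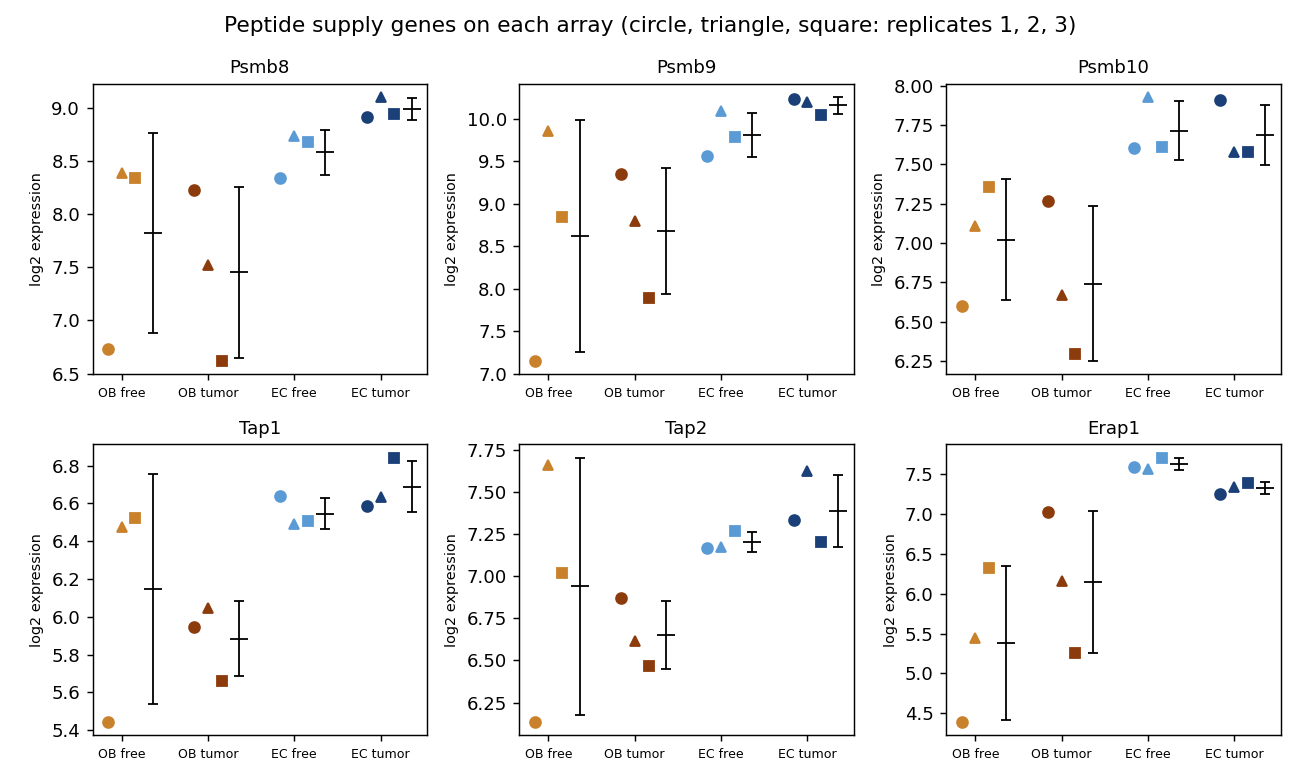
Log2 expression of 6 genes of class I peptide supply on each array (OB, osteoblasts; EC, endothelial cells; bars, group mean ± SD, n = 3). Endothelial arrays cluster tightly at the upper end for Psmb8, Psmb9, Psmb10 and Erap1, with Erap1 between 7.25 and 7.71, and tumor-free osteoblast replicate 1 is lowest for Psmb9, Tap1, Tap2 and Erap1.

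Erap1, the aminopeptidase that trims peptides in the endoplasmic reticulum to fit class I, had the largest positive cell type difference of the 28 genes in tumor-free mice. Erap1 read 4.39, 5.44 and 6.32 in tumor-free osteoblasts, 7.03, 6.16 and 5.25 in tumor-bearing osteoblasts, 7.60, 7.57 and 7.71 in tumor-free endothelial cells, and 7.25, 7.34 and 7.40 in tumor-bearing endothelial cells. Every endothelial value lay above every osteoblast value, and the tumor-bearing endothelial values lay just below the tumor-free ones. In tumor-free mice Erap1 was 4.73-fold higher in endothelial cells (log2 difference 2.24, SE 0.47, adjusted p = 0.00635 with limma). This call held in all 12 fits that left out 1 array, with differences of 3.35-fold to 6.54-fold. In tumor-bearing mice the difference was 1.18 (SE 0.47, adjusted p = 0.135), and the 2 cell type differences themselves differed by -1.06 (95% confidence interval -2.53 to 0.42, adjusted p = 0.443).

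TAP is a heterodimer of Tap1 and Tap2. Tap1 read 5.44, 6.48 and 6.52 in tumor-free osteoblasts, 5.95, 6.05 and 5.66 in tumor-bearing osteoblasts, 6.64, 6.49 and 6.50 in tumor-free endothelial cells, and 6.59, 6.64 and 6.84 in tumor-bearing endothelial cells. In tumor-bearing mice the cell types did not overlap for Tap1 (log2 difference 0.80, SE 0.26, adjusted p = 0.0590) or for Tap2 (log2 difference 0.74, SE 0.31, adjusted p = 0.153), and Tap2 spanned 6.14 to 7.66 in osteoblasts and 7.17 to 7.62 in endothelial cells. With array quality weights, 9 members passed in tumor-bearing mice, among them Psmb9, Tap1, Tap2 and Erap1, and without tumor-free osteoblast replicate 1 there were 7. There were 4 without tumor-bearing osteoblast replicate 1 or tumor-free osteoblast replicate 2, and 1 without tumor-bearing osteoblast replicate 3 or any 1 tumor-free endothelial array. Leaving out tumor-bearing osteoblast replicate 2 or any 1 of the 3 tumor-bearing endothelial arrays left none. The share of all genes that passed in each of these fits is not given here.

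The promoters of Erap1 and Tap1 are shown because Erap1 carries 1 of only 2 IRF elements found among the members, and because Tap1 and Psmb9 share theirs. Erap1 is on the plus strand of chr13:74639603-74639872 and Tap1 on the plus strand of chr17:34187306-34187575 (GRCm38.p6), each from 250 bases before to 20 bases after the start. Capitals mark in Erap1 the IRF element, on the reverse strand and starting 4 bases before the start, and in Tap1 a Y box starting 222 bases before the start.
Erap1: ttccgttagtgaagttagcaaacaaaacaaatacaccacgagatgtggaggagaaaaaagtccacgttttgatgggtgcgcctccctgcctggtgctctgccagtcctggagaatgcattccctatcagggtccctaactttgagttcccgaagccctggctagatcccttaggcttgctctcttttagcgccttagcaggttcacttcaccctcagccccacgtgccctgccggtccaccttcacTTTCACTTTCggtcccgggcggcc
Tap1: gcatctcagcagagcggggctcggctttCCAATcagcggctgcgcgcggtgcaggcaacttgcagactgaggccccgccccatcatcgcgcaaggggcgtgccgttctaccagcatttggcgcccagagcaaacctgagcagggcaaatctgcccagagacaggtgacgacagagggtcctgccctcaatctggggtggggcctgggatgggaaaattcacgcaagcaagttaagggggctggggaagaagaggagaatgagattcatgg
Psmb9 is transcribed from the opposite strand, and its 300-base window overlaps that of Tap1 by 275 bases, so that the Y box of Tap1 is also the one found 8 bases before the Psmb9 start. A gamma-activated site, spelled TTCNNNGAA, was in 8.29% of all windows and in those of Psmb8, H2-M3 and H2-M11 among the members.

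Of the 4 genes that load and fold class I, Tapbp encodes tapasin, which bridges TAP and the heavy chain. Tapbp read 6.95, 7.65 and 6.86 in tumor-free osteoblasts, 7.43, 7.39 and 7.12 in tumor-bearing osteoblasts, 7.59, 7.84 and 7.89 in tumor-free endothelial cells, and 7.81, 7.53 and 7.75 in tumor-bearing endothelial cells. Tumor-free osteoblast replicate 2 lay within the endothelial range and the other osteoblast arrays below it. Tapbp was 1.54-fold higher in tumor-free endothelial cells (log2 difference 0.62, SE 0.21, adjusted p = 0.0444 with limma), a call that held in 2 of 12 fits without 1 array and was lost after quantile normalization (0.29, adjusted p = 0.285). Calreticulin (Calr) read 8.44 on tumor-free osteoblast replicate 1 and 9.70 to 10.21 on the other 11 arrays. Calnexin (Canx) lay between 10.69 and 11.19 and the disulfide isomerase Pdia3 between 10.16 and 10.70. None of Calr, Canx and Pdia3 passed in any comparison. All 4 genes had a positive tumor difference in osteoblasts (0.10 to 0.46), apart from 1 that was negative after quantile normalization, and all 4 had a negative one in endothelial cells (-0.29 to -0.08).

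Nlrc5, the class I transactivator, was measured by 19 probe sets. Its brightest probe set read 8.80, 8.94 and 8.91 in tumor-free osteoblasts, 8.62, 8.83 and 9.02 in tumor-bearing osteoblasts, 8.52, 8.44 and 8.42 in tumor-free endothelial cells, and 8.76, 9.14 and 8.29 in tumor-bearing endothelial cells. Tumor-free endothelial cells lay below both osteoblast groups on this probe set, and the other pairs of groups overlapped. Between the tumor-free cell types the log2 difference was -0.42 (SE 0.20, adjusted p = 0.125 with limma), which passed after quantile normalization (-0.69, adjusted p = 0.0484). The tumor difference of this probe set in endothelial cells was 0.27 (SE 0.20, adjusted p = 0.935 with limma).

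The probe sets of Nlrc5 did not read alike, which was examined after the values had been seen, in a fit of all 19745 probe sets that passed the filter. Of its 14 probe sets in that fit, 13 had a positive tumor difference in endothelial cells and 1 a negative one, with a median of 0.26. None passed after adjustment, against 0.00506% of all probe sets, and 3 had an unadjusted p below 0.05. Probe set 10574102 read 5.98, 5.78 and 5.88 in tumor-free and 7.29, 8.42 and 7.31 in tumor-bearing endothelial cells, with no overlap (log2 difference 1.79, SE 0.30, adjusted p = 0.129 with limma). Between the cell types of tumor-bearing mice 1 of the 14 passed, against 10.3% of all probe sets. It was the same probe set, higher in endothelial cells than in osteoblasts (log2 difference 1.28, adjusted p = 0.0200 with limma), whereas the brightest probe set had a difference of -0.09. Between the tumor-free cell types 1 of the 14 passed as well, against 24% of all probe sets. It was probe set 10574153, lower in endothelial cells than in osteoblasts (log2 difference -0.72, adjusted p = 0.0124 with limma).

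**Figure D4:**
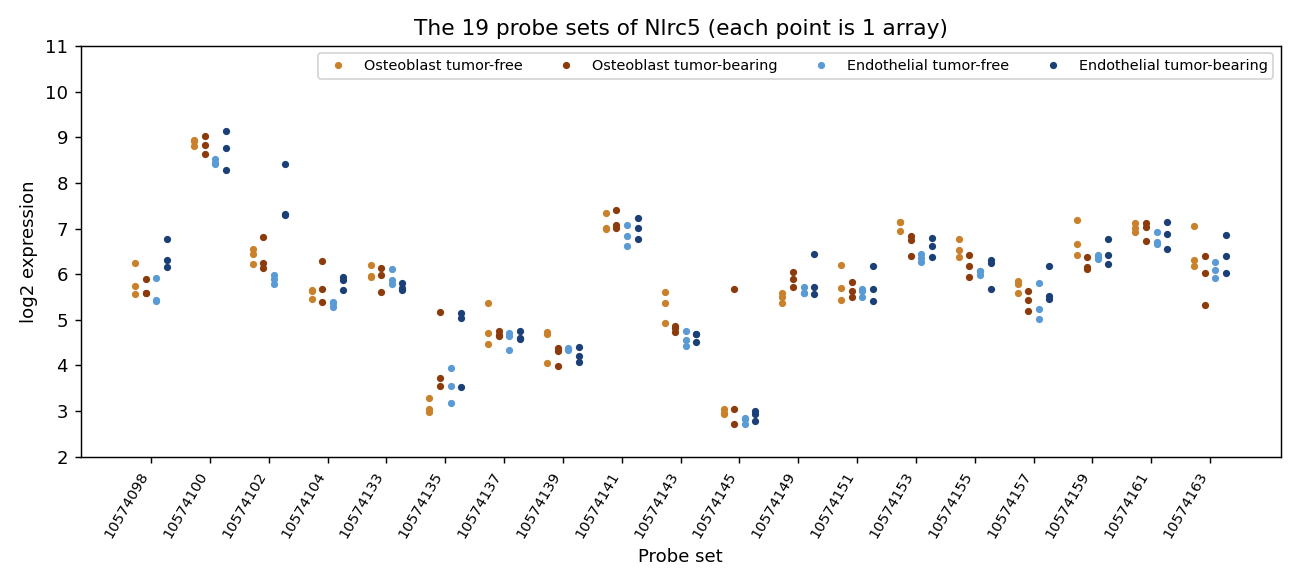
Log2 expression on each of the 19 Nlrc5 probe sets (horizontal axis, by probe set number), with 1 point per array and 1 colour per group. On most probe sets the 4 groups lie together, and on probe set 10574102 the 3 tumor-bearing endothelial arrays lie at 7.29 to 8.42, above all other arrays.

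Tumor-bearing and tumor-free mice were then compared over all members. In osteoblasts none of the 28 genes passed, against 4.59% of all genes tested, although 3 had an unadjusted p below 0.05 (Ciita, H2-M3 and H2-Q2), which is 24.4% over all genes. The tumor-bearing and tumor-free osteoblast arrays did not overlap for 3 of the 28 genes, all lower with tumor (Ciita, H2-Ob and H2-Q2), against 24.7% of all genes in either direction and 12.3% lower. Differences ranged from -1.18 for Cd74 to 0.76 for Erap1 with a median of -0.27 (all genes, 0.00). A call did appear when 1 of 2 arrays was left out: without tumor-free osteoblast replicate 1, Cd74, H2-M3 and Tap1 were lower with tumor, and without tumor-free osteoblast replicate 3, H2-Q4 was higher (2.00-fold, adjusted p = 0.0282 with limma).

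In endothelial cells none of the 28 genes passed either, against 0.0241% of all genes, and none had an unadjusted p below 0.05, against 6.93%. The groups did not overlap for 8 genes, against 18.8% of all genes in either direction, 7.84% higher and 10.9% lower. H2-Eb1, H2-Q2, H2-Q4, H2-Q5 and Psmb8 were above, and Calr, Canx and Erap1 below, their tumor-free values on all 3 tumor-bearing arrays. Differences ranged from -0.30 for Erap1 to 0.55 for H2-Eb1 with a median of 0.15 (all genes, -0.02). In each cell type the 95% confidence interval lay inside a 2-fold change in both directions for 17 of the 28 genes. The intervals of Cd74 were wide, from -2.99 to 0.62 in osteoblasts and from -1.46 to 2.15 in endothelial cells. Testing the tumor difference of endothelial cells against that of osteoblasts gave no call among the 28 genes, against 0.209% of all genes, and 4 genes with an unadjusted p below 0.05 (Ciita, H2-M3, H2-Q2 and H2-Q5), against 16%. Without tumor-free osteoblast replicate 1, H2-Q5 passed this test (1.09, adjusted p = 0.0398 with limma).

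**Figure D5:**
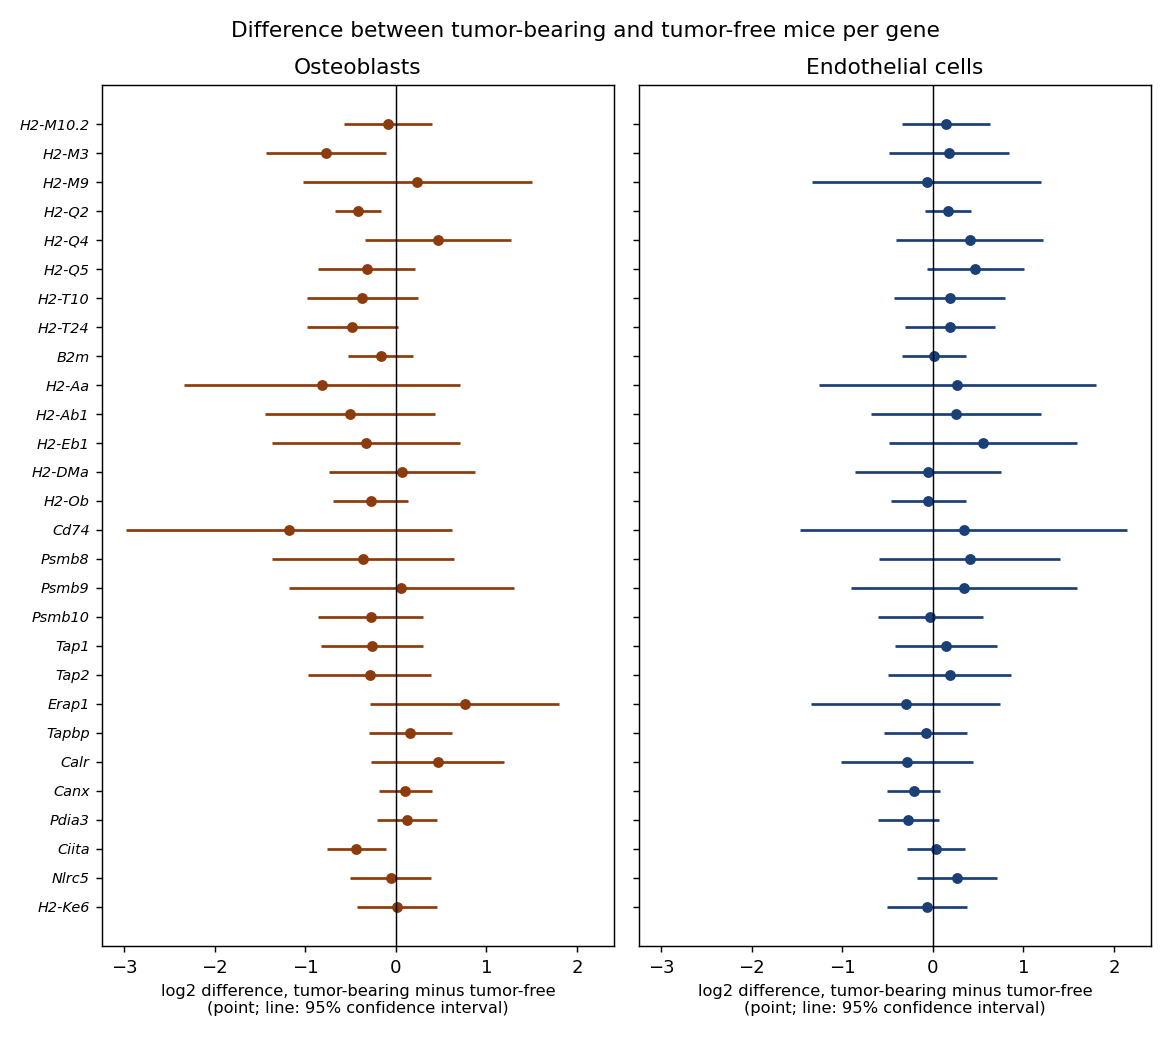
Tumor-bearing minus tumor-free log2 difference of each tested gene in osteoblasts and endothelial cells (points; lines, 95% confidence intervals of the limma fit). Most intervals cross 0, those of H2-M3, H2-Q2 and Ciita in osteoblasts lie below it before adjustment, and Cd74 and H2-Aa have the widest.

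The count of 7 genes called between the tumor-free cell types, 2 higher and 5 lower, depended on scaling. Centring each array on its median, which moved the median difference of all genes from 0.03 to 0.18, gave 4 calls, all higher in endothelial cells. The fits without 1 array gave 1 to 8 calls, and the share of all genes that passed in each is not given here. They gave 1 without any 1 of the tumor-free endothelial arrays, 3 without tumor-bearing osteoblast replicate 2, tumor-free osteoblast replicate 3 or replicate 1 or 3 of the tumor-bearing endothelial cells, and 4 without replicate 2 of the latter. The cell types did not overlap for 10 of the 28 genes in tumor-free mice, against 47.3% of all genes, and for 14 in tumor-bearing mice, against 35.9%. In tumor-bearing mice 12 of those 14 were higher in endothelial cells, against 19.5% of all genes, among them all 6 genes of peptide supply.

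H2-Ke6, named for its place in the MHC, encodes a steroid dehydrogenase without a role in presentation. It lay between 6.34 and 7.10 on all arrays and passed in no comparison.

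The wider pathway was described with lists of other genes. Over all genes tested, 18.2% were higher and 12.7% lower in endothelial cells than in osteoblasts of tumor-free mice (31% in either direction), and in tumor-bearing mice 14.9% passed in either direction and 8.13% were higher. Of 14 tested interferon-stimulated genes, 8 (57.1%) were higher in endothelial cells of tumor-free mice and 9 (64.3%) in those of tumor-bearing mice, and none was lower. Their median cell type differences were 1.24 and 1.56. The interferon-inducible GTPase Iigp1 read 6.32, 5.87 and 6.80 in tumor-free osteoblasts and 9.18, 9.37 and 9.33 in tumor-free endothelial cells (7.79-fold, adjusted p = 0.000305 with limma). None of the 14 passed between tumor-bearing and tumor-free mice, with median differences of 0.68 in osteoblasts and 0.56 in endothelial cells. Of 19 regulators of interferon signalling and of MHC transcription, 7 were higher (36.8%) and 2 lower (10.5%) in tumor-free endothelial cells than in osteoblasts, and 3 (15.8%) were higher in tumor-bearing mice. Irf1, an interferon-induced activator of class I and peptide supply genes, rose with tumor in osteoblasts. It read 6.83, 7.75 and 6.94 without tumor and 8.84, 8.73 and 8.48 with it (2.85-fold, log2 difference 1.51, SE 0.25, adjusted p = 0.0103), and was the only one of the 19 to pass there, where 4.59% of all genes passed.

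Of 15 other class I processing genes, 4 were higher and 1 lower in tumor-free endothelial cells (33.3% in all), and 2 (13.3%) were higher in tumor-bearing ones, shares near those of all genes. The proteasome activator subunit Psme1 read 8.36, 8.41 and 8.26 in tumor-bearing osteoblasts and 9.35, 9.59 and 9.83 in tumor-bearing endothelial cells (2.37-fold, adjusted p = 0.00415 with limma). With tumor, 1 of the 15 rose in osteoblasts, the proteasome core gene Psma1 (1.90-fold, adjusted p = 0.0351), and none changed in endothelial cells. Of 11 endosomal protease and class II processing genes, 2 were higher and 4 lower in tumor-free endothelial cells (54.5% in all), and 2 were higher and 2 lower in tumor-bearing ones (36.4% in all). The lower ones in tumor-free mice included Ifi30, the lysosomal thiol reductase (3.94-fold, adjusted p = 0.000296), and the higher ones cathepsin L, Ctsl (2.81-fold, adjusted p = 4.98e-05). Ctsl was also the only one of the 11 to rise with tumor in osteoblasts (1.51-fold, adjusted p = 0.0465), and none of the 11 passed in endothelial cells.

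Of 5 tested costimulatory and checkpoint ligands, 1 (20%) passed between the cell types of tumor-bearing mice, and none in the other comparisons. Cd274, which encodes the inhibitory ligand PD-L1, read 5.18, 5.39 and 5.52 in tumor-bearing osteoblasts and 6.22, 6.13 and 6.87 in tumor-bearing endothelial cells (2.06-fold, adjusted p = 0.00531 with limma). Tumor-free endothelial cells read 5.18, 5.29 and 5.35 for Cd274, below all 3 tumor-bearing ones (log2 difference 1.14, SE 0.21, adjusted p = 0.174). Of 4 tested class I-like genes outside the H2 complex, 2 (50%) were higher in tumor-free endothelial cells, Procr (3.34-fold, adjusted p = 0.00115), the endothelial protein C receptor, and Mr1 (2.38-fold, adjusted p = 0.0294), which presents vitamin metabolites. Procr alone of the 4 was also higher in tumor-bearing endothelial cells (6.22-fold, adjusted p = 7.38e-05).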

How the data were processed

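RNA of 12 sorted samples (4 groups of 3) was amplified and hybridized to Affymetrix arrays. The authors deposited log2 expression values for 34760 probe sets, made with affy per the submitters' processing notes; its version is unrecorded in the labels, as are the background correction and the normalization. The platform annotation gave 21640 probe sets 1 gene symbol, 1321 several and 11799 none, and only the first were named. The analysis used limma 3.58.1 in R 4.3.3 (lmFit and eBayes on all 12 arrays with 4 group means), two-sided tests, and Benjamini-Hochberg adjustment over 12430 genes. The fit was tested on simulated data. The number of arrays limits the precision. No 2 of the 12 arrays were identical. Values per array are given for B2m, class II genes, Ciita, Nlrc5, Tap1, Psmb8, Psmb9 and members past the threshold, and up to 3 genes of each other list are named by smallest p. Psmb10, Erap1, Tapbp and H2-Q2 were past it. The members and lists were chosen with earlier results of these data known. Alternatives covered scaling, filters, probe sets, variance models, array weights, the samples fitted, the replicate number and each array left out. Promoters came from RefSeq (GRCm38.p6); NOD alleles were not compared with the probes. The labels do not say whether replicate numbers pair samples. The deviations of samples with the same number correlated between -0.26 and 0.11, which cannot decide whether they came from the same mice.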

Additional observations from a re-analysis of the deposited data

How the results depend on the processing

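In endothelial cells no member passed between tumor-bearing and tumor-free mice under any alternative run. In osteoblasts quantile normalization gave 1 call and no filter 2, all lower with tumor, and fits without 1 array gave 0 to 3. Between tumor-free cell types the 7 calls became 12 without a filter. All 43 members were tested there, the calls of the 28 genes did not change, and the added calls were of dim genes. The 7 calls became 4 with centred arrays, 4 with array quality weights and 1 with only the compared groups, and 1 to 8 without 1 array. Between tumor-bearing cell types the 2 calls became 1 without a filter, 9 with quality weights, 6 with only the compared groups, and 0 to 7 without 1 array. The difference of the tumor differences gave 0 to 1 call without 1 array. With the replicate number as a block, 2 and 0 members passed between tumor-free and tumor-bearing cell types; 5 of the 12 arrays correlated best with their own number. Nlrc5 reversed on probe set 10574102 between tumor-bearing cell types (log2 difference 1.28, against -0.09). Shares of all genes under these alternatives are not given here, and the causes of these changes were not tested. The 15 dim genes are limited by signal near the lower end of the arrays.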

Other observations

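A total of 10 probe sets are listed with several symbols that include an H2 gene or a member, and are given here without a gene name. The brightest of those listed with several class I heavy chain genes read 8.33, 10.30 and 10.55 in tumor-free osteoblasts, 10.26, 9.72 and 9.12 in tumor-bearing osteoblasts, and 10.06 to 10.40 on the 6 endothelial arrays. Its low value on tumor-free osteoblast replicate 1 fell on the array that was also lowest for Psmb9, Tap1, Tap2, Erap1 and Calr. A second probe set listed with the same genes read 8.09, 8.22 and 8.35 in tumor-free osteoblasts, and its lowest value, 7.65, fell on tumor-bearing osteoblast replicate 3. Of the 10 probe sets, 1 was too dim to be tested in a limma fit of all probe sets. Between the tumor-free cell types 1 of the others passed, and between the tumor-bearing cell types another 1 did. Neither count stood out from the share of all probe sets given below, and no other comparison gave a call. Both probe sets were chosen for description after their values were seen. A probe set listed with several class II accessory genes read 6.38, 5.84 and 6.49 in tumor-free osteoblasts and 5.45, 5.41 and 5.25 in tumor-free endothelial cells, which was lower (log2 difference -0.86, adjusted p = 0.0186, against 24% of all probe sets called). A probe set listed with several class I heavy chain genes read 8.11, 7.81 and 7.69 in tumor-bearing osteoblasts and 8.74, 8.67 and 8.57 in tumor-bearing endothelial cells, which was higher (log2 difference 0.79, adjusted p = 0.0146, against 10.3% called). The tumor-free endothelial arrays read 8.23, 7.90 and 8.06 on the latter probe set, below the tumor-bearing ones.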
